A study of Mus musculus with 3 samples.

Results

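The genes described here are the nuclear effectors of canonical Wnt signalling and the receptors for R-spondins in the mouse back skin epithelium. They were taken by symbol from 1 table of 44625 gene entries, and all 10 were found: Tcf7, Tcf7l1, Tcf7l2, Lef1, Ctnnb1, Axin2, Lgr4, Lgr5, Lgr6 and Rnf43. Polyadenylated RNA had been sequenced from 3 libraries of wild-type (WT) cells, taken from mice aged 56 days (P56) in the second telogen, a resting phase of the hair cycle. The cells were labelled alpha6+/Sca1-, that is, bearing integrin alpha6 and lacking Sca1, and were collected from trypsin-digested back skin by flow cytometry with an alpha6 antibody. All 3 libraries form 1 group, with no treatment, allele or second genotype, so no test between groups could be made on them. The protocols speak of biological duplicates and do not say which libraries came from separate mice, so each SD and each p measures only the spread between these libraries, which may be partly technical. The same table carried the authors' own fold change, which was read from column names as alpha6+/Sca1- over Bulge libraries. Those Bulge libraries match no sample of the series and were not analysed here.

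In canonical Wnt signalling, a Wnt ligand bound to Frizzled and an Lrp co-receptor stops the destruction complex from marking beta-catenin for degradation, and beta-catenin then enters the nucleus. There it binds the Tcf/Lef proteins, which sit on DNA through an HMG box and otherwise hold target genes down together with Tle corepressors. R-spondins bind Lgr4, Lgr5 or Lgr6 and draw the ubiquitin ligases Rnf43 and Znrf3 away from Frizzled, so that more receptor stays at the cell surface. In resting follicles the stem cells of the bulge are known for low Wnt activity and for Tcf7l1 (also called Tcf3), while Lef1 is best known from the hair germ and the growing matrix.

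The library totals ranged from 29283936 to 39198620 counts, and mitochondrial genes took between 4.26% and 6.20% of them. All 10 genes of the hair follicle stem cell marker list had a mean of at least 1 TPM (counts per base of gene, set to the same total in every library), among them Krt15 with 23208 ± 3176 TPM and Cd34 with 535 ± 56.8 TPM (SD, n = 3). All 7 suprabasal markers and all 7 isthmus and upper follicle markers also passed 1 TPM, and the summed level of the suprabasal list was 3316, 4477 and 7185 TPM in replicates 1 to 3. Replicate 1 stood apart from the others. Of 13664 genes with a mean of at least 1 TPM, 59.6% had their highest TPM in replicate 1, and the median of replicate 1 against the mean of the other libraries was 0.24 on the log2(TPM + 1) scale. The 11 dissociation response genes summed to 25673, 16630 and 11865 TPM in replicates 1 to 3. Their part in the differences between libraries given below was not tested.

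All 10 genes had at least 1 TPM in each of the 3 libraries, as did 27% of all table entries. Their mean levels spanned from 345 TPM for Ctnnb1 to 1.67 TPM for Lef1. The SD of log2(TPM + 1) over the libraries lay between 0.08 for Lgr5 and 0.44 for Tcf7l1, with a median of 0.18, against a median of 0.29 over all 13664 genes with a mean of at least 1 TPM. In every one of the 10 genes the spread between libraries exceeded counting error, by 2.87 times for Tcf7 up to 16.1 times for Lgr4.

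**Figure D1:**
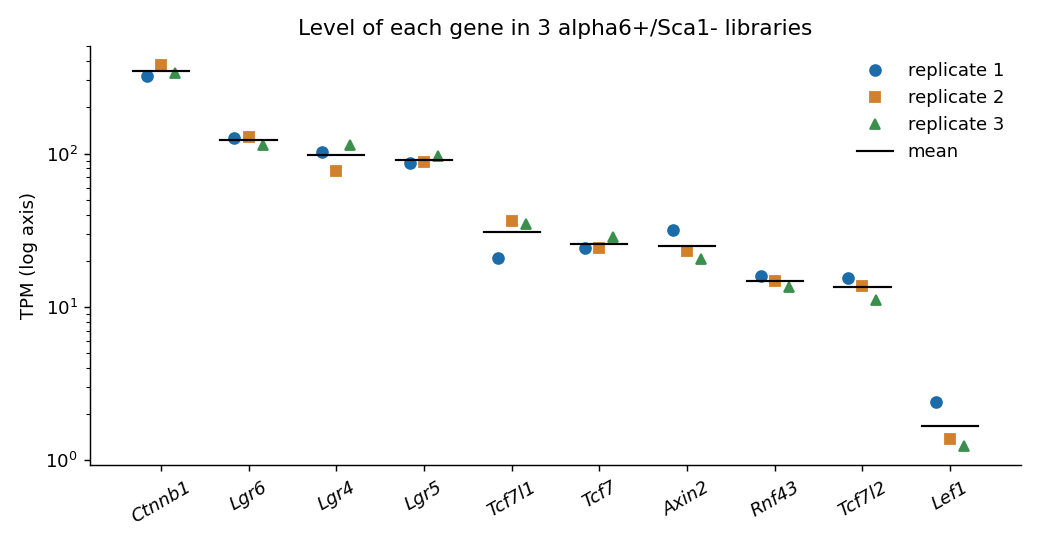
Level of each of the 10 genes in the 3 alpha6+/Sca1- libraries, in TPM on a log axis, with points for single libraries and a bar for the mean. Ctnnb1 lies at 323 TPM or more in every library, the Lgr receptors form a middle group, and Lef1 stays under 3 TPM.

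Ctnnb1, which encodes beta-catenin, was the highest of the 10 genes. It lies on GRCm38 chromosome 9 from 120929216 to 120960507 on the plus strand. Replicates 1 to 3 gave 18060, 26884 and 26766 counts, or 323, 378 and 334 TPM, with a mean of 345 ± 29.3 TPM (SD, n = 3). The libraries differed by at most 1.17-fold, and the gene lay at the percentile of 97.6 among genes with a mean of at least 1 TPM. Beta-catenin also works at adherens junctions, where it links cadherins to alpha-catenin. The genes nearest to Ctnnb1 in level over the 3 libraries, among 64 genes of the Wnt lists with a mean of at least 1 TPM, were the E-cadherin gene Cdh1, at a Euclidean distance of 0.34 on the log2(TPM + 1) scale, and the alpha-catenin gene Ctnna1, at 0.39. The lists searched held the junction partners themselves, and these distances describe like levels only. Up to 475 bases of a Ctnnb1 exon overlap an exon of Ulk4 on the opposite strand. Ulk4 had 106, 145 and 192 counts, and since the strand setting of the counting is not given in the sources used here, reads from the shared stretch cannot be told apart. The same holds for Tcf7l1, Lef1 and Axin2, whose exons overlap Gm15401, Gm43352 and Gm11670 by 95, 1208 and 105 bases. Those partners had at most 23 counts in any library.

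Among the Tcf/Lef genes in TPM, Tcf7l1 and Tcf7 stood close together, Tcf7l2 lay below them and Lef1 was far lower. Tcf7l1 (chromosome 6, 72626378 to 72789254, minus strand) encodes the member of the family best known as a repressor. Its 878, 1963 and 2113 counts in replicates 1 to 3 came to 20.8, 36.5 and 34.9 TPM, with a mean of 30.7 ± 8.68 TPM (SD, n = 3). Replicate 1 was the low library, and without it the mean was 35.7 TPM. On the log2(TPM + 1) scale this was the widest spread among the 10 genes, while relative to its mean TPM Lef1 varied more. It ran against the general shift of replicate 1: on the log2(TPM + 1) scale replicate 1 lay at -0.75 against the mean of the others, and at -1.01 with TMM scaling. Tcf7 (chromosome 11, 52252371 to 52283014, minus strand), which encodes Tcf1, is otherwise best known from T cells. It had 24.0, 24.3 and 28.4 TPM, from 680, 872 and 1151 counts, with a mean of 25.6 ± 2.47 TPM. Its values changed little between libraries, so it was above Tcf7l1 in replicate 1 and below it in replicates 2 and 3.

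Tcf7l2 (chromosome 19, 55741820 to 55933654, plus strand) encodes Tcf4, a main partner of beta-catenin in the intestinal epithelium. Its 1458, 1628 and 1496 counts came to 15.5, 13.6 and 11.1 TPM, with a mean of 13.4 ± 2.20 TPM (SD, n = 3). In TPM replicate 1 was the highest and replicate 3 the lowest, and all 3 values lay below every value of Tcf7 and Tcf7l1. The order against Tcf7 rests on gene length (8739 bases for Tcf7l2, 2625 for Tcf7), since in counts Tcf7l2 was above Tcf7 in all 3 libraries. Lef1 (chromosome 3, 131110471 to 131224356, plus strand), which encodes an effector that mostly activates with beta-catenin, had 2.40, 1.37 and 1.23 TPM, from 227, 165 and 167 counts, with a mean of 1.67 ± 0.636 TPM. The exact Poisson interval (95%, counting error only) of its level was 2.09 to 2.73 TPM in replicate 1, 1.17 to 1.60 TPM in replicate 2 and 1.05 to 1.43 TPM in replicate 3. Replicate 1 thus lay above the others by more than counting error, while replicates 2 and 3 overlapped. Without replicate 1 the mean of Lef1 was 1.30 TPM. At the percentile of 7.94, Lef1 was among the lowest of the genes with a mean of at least 1 TPM.

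The starts of these genes differ in CpG content, a feature of promoters that Polycomb often covers in mammals. RefSeq promoter windows on GRCm38.p6, of 250 bases before and 50 after a start, were matched for 9 of the 10 genes, as 16 windows. Lgr5 was not among them. The windows held a median of 19.5 CpG dinucleotides, against 7 over all 32851 windows. Lef1 had 4 windows, with 18, 21, 8 and 5 CpG, and Tcf7l2 had 2, with 34 and 7. The upstream 250 bases of 1 start per gene, the first along the chromosome in the direction of the gene, are printed for Lef1, the one of the 10 genes with a deposited value for the Polycomb mark H3K27me3, for Tcf7l1, the Tcf/Lef gene with the highest mean TPM, and for Tcf7l2, the one lower in the deposited comparison, 5′ to 3′ on the strand of the gene with CpG in capitals.
Lef1, chr3:131110047-131110296, plus strand: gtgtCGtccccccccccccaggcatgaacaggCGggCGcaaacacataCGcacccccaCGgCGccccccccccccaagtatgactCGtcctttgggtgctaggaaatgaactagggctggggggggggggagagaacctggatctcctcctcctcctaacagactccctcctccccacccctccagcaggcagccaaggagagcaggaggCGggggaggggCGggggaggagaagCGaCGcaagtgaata
Tcf7l1, chr6:72789046-72789295, minus strand: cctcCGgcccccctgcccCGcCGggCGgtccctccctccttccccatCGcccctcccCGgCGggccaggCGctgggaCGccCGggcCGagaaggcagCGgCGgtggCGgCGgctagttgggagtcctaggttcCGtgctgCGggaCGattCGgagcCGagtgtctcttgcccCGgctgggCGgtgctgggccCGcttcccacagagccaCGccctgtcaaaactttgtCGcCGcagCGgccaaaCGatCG
Tcf7l2, chr19:55741560-55741809, plus strand: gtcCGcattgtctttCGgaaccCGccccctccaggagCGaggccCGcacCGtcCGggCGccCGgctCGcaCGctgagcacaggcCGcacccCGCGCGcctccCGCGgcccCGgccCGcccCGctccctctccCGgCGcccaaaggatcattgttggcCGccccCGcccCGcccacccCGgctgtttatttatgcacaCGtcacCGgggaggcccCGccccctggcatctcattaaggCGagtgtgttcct

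The printed stretches held 11 CpG for Lef1, 29 for Tcf7l1 and 30 for Tcf7l2. In windows of 300 bases, the printed start of Lef1 lay at the percentile of 70.3 for CpG among all windows and those of Tcf7l1 and Tcf7l2 at 92.3. The second window of Tcf7l2, at 47.9, lay below that of the printed Lef1 start, so the order of these genes by CpG depends on the start. The highest was Ctnnb1, whose windows held 46 and 51 CpG. The Tcf/Lef recognition motif, searched as CTTTGAA or CTTTGAT on both strands, was in 0 of the 16 windows and in 8.65% of all windows. Its core CTTTG, which the longer motifs contain, was in 7 of the 16 windows on either strand and in 53.9% of all windows. A match or its absence describes these letters in these windows only.

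Of the summed Tcf/Lef TPM in a library, Tcf7l1 held 33.1%, 48.2% and 46.1% in replicates 1 to 3, and Tcf7 held 38.4%, 32.02% and 37.6%. Tcf7l2 held 24.7%, 17.96% and 14.7%, and Lef1 held 3.82%, 1.81% and 1.63%. Tcf7l1 therefore had the largest share in replicates 2 and 3, and Tcf7 in replicate 1. Without replicate 1 the mean share of Tcf7l1 was 47.2%, against 42.5% ± 8.18 with it (SD, n = 3). Within libraries, the log2 ratio of Tcf7l1 to Lef1 was 2.68, 3.98 and 4.01, a mean of 3.56 ± 0.76, positive in 3 of 3 libraries (two-sided exact sign-flip permutation p = 0.25, adjusted 0.375 over 6 ratios). That p is the smallest that 3 libraries allow. The ratio of Tcf7l1 to Tcf7l2 was 0.40, 1.36 and 1.57, a mean of 1.11 ± 0.62, also positive in 3 of 3 (exact p = 0.25, adjusted 0.375). Without division by gene length this mean was 0.01 ± 0.64 (exact p = 1), so the order of Tcf7l1 and Tcf7l2 rests on the length of Tcf7l2. The ratio of Tcf7l1 to Tcf7 was smaller than its spread, -0.20, 0.57 and 0.29, a mean of 0.22 ± 0.39 (exact p = 0.5). Without division by length it was 0.78 ± 0.40, with 1 sign in 3 of 3 libraries (exact p = 0.25).

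**Figure D2:**
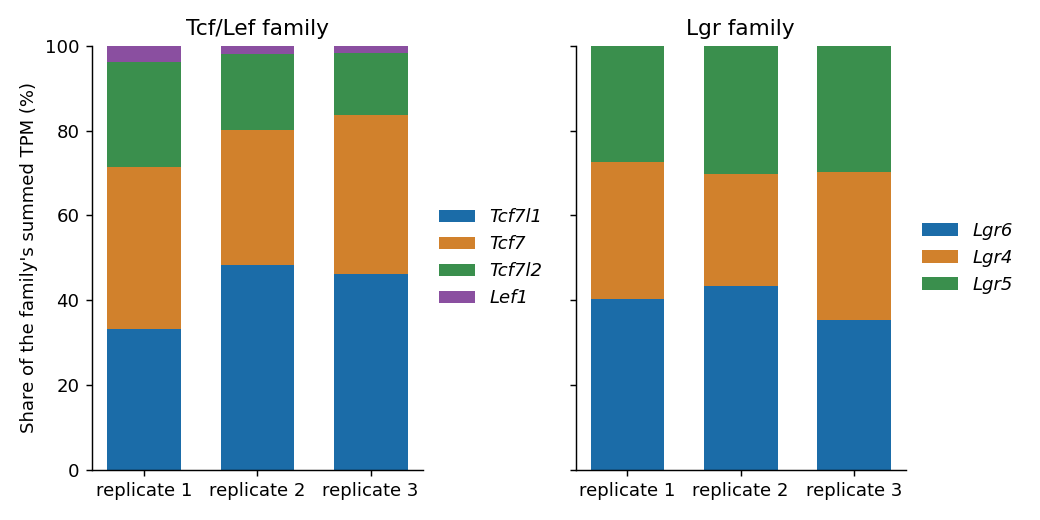
Share of each gene in the summed TPM of its family (percent, stacked bars from 0 to 100), for each of the 3 libraries, with the Tcf/Lef genes on the left and the Lgr genes on the right. Tcf7l1 takes 33.1% in replicate 1 and 48.2% and 46.1% in the others, and Lef1 is a thin band of 3.82% or less.

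T cells carry Tcf7 and Lef1, so T cell markers were read beside them. Of 12 T cell markers, 2 had a mean of at least 1 TPM, Trbc2 with 47.1 ± 1.80 TPM and Thy1 with 8.59 ± 2.85 TPM (SD, n = 3). The summed level of the list was 56.6 to 57.9 TPM. Cd3d had no count in any library, a limit of 0.153 TPM, Trac had 0, 1 and 0 counts, and Ptprc had 0, 0 and 5. Cd3e had 0, 20 and 0 counts, Cd247 0, 15 and 0 and Cd3g 3, 12 and 1, and none of the 10 markers other than Trbc2 and Thy1 passed 20 counts in any library. Trbc2 had 367, 435 and 494 counts. The part of T cell RNA in Tcf7 was not tested. Of 8 melanocyte markers, 5 had a mean of at least 1 TPM, led by Mitf with 32.3 ± 10.7 TPM and Dct with 8.02 ± 1.07 TPM, and the list summed to between 40.0 and 60.6 TPM with its highest sum in replicate 1, where Lef1 was also highest. That peak came mainly from Mitf, with 44.4, 28.5 and 24.0 TPM in replicates 1 to 3. Pmel, with 5.92, 2.37 and 4.17 TPM, also peaked in replicate 1. Dct had 7.71, 9.21 and 7.14 TPM, and neither Dct nor Sox10 nor Tyrp1 peaked there. The part of melanocyte RNA in Lef1 was not tested. The dermal papilla and fibroblast list summed to 18.5, 45.7 and 40.8 TPM, mainly from Col1a1 and Col1a2, with Lum at 0 counts, which allows up to 0.134 TPM. In bulk libraries such as these, fewer cells of a type and less RNA per cell cannot be told apart.

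The R-spondin receptors formed the second layer of levels, between 77.4 and 127 TPM in single libraries. Lgr6 (chromosome 1, 134983301 to 135105276, minus strand), a receptor known from the isthmus and the region above the bulge, had 127, 127 and 114 TPM, from 9394, 11941 and 12045 counts, with a mean of 123 ± 7.66 TPM (SD, n = 3). Lgr4 (chromosome 2, 109917647 to 110014257, plus strand), the most widely expressed receptor of the family, had 102, 77.4 and 113 TPM, from 6464, 6238 and 10246 counts, with a mean of 97.4 ± 18.2 TPM. Lgr5 (chromosome 10, 115450311 to 115587780, minus strand), a marker of cycling stem cells in the lower bulge and hair germ, had 86.1, 88.4 and 95.8 TPM, from 9530, 12423 and 15162 counts, with a mean of 90.1 ± 5.04 TPM. Lgr6 was above Lgr5 in all 3 libraries, and their values did not overlap. Lgr4 varied most, and in replicate 2 it was the lowest of the receptors.

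The log2 ratio of Lgr6 to Lgr5 was 0.56, 0.52 and 0.25, a mean of 0.44 ± 0.17 (positive in 3 of 3 libraries, two-sided exact sign-flip permutation p = 0.25, adjusted 0.375). The call that Lgr6 exceeded Lgr5 depends on gene length, since Lgr5 is divided by 10264 bases and Lgr6 by 6851. In library-scaled counts without that division the mean ratio was -0.14. The ratio of Lgr4 to Lgr5 was 0.24, -0.19 and 0.24, a mean of 0.10 ± 0.25, within its spread (exact p = 0.5, adjusted 0.5). Without division by length it turned to -0.70 ± 0.25, negative in 3 of 3 libraries (exact p = 0.25). Of the summed Lgr TPM, Lgr6 held 39.7% ± 4.09, Lgr4 31.2% ± 4.39 and Lgr5 29.1% ± 1.52 (SD, n = 3). The 3 receptors together came to 315, 293 and 323 TPM, and the 4 Tcf/Lef genes to 62.7, 75.8 and 75.7 TPM.

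The isthmus and upper follicle markers, which would accompany Lgr6 from those regions, were led by Krt17 with 3499 ± 654 TPM and Defb6 with 185 ± 104 TPM (SD, n = 3). Their list summed to 4732, 4169 and 3135 TPM in replicates 1 to 3. Lgr6 was lowest in the same library, replicate 3, and their relation was not tested. The genes nearest to Lgr6 in level were Myc, at a distance of 0.35 on the log2(TPM + 1) scale, and Wif1, at 0.36. Nearest to Lgr5 were Csnk1a1 at 0.14 and Hdac1 at 0.21, and nearest to Lgr4 were Csnk1a1 at 0.27 and Ctbp1 at 0.38. These distances rest on 3 libraries and describe like levels only.

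Axin2 and Rnf43 are feedback genes, each induced by Wnt signalling and each damping it, Axin2 as a scaffold of the destruction complex and Rnf43 at the receptor. Axin2 (chromosome 11, 108920349 to 108950783, plus strand) had 31.6, 23.1 and 20.4 TPM, from 1874, 1745 and 1734 counts, with a mean of 25.0 ± 5.82 TPM (SD, n = 3). Its highest value, in replicate 1, was 1.55 times its lowest, in replicate 3, and without replicate 1 the mean was 21.8 TPM. Rnf43 (chromosome 11, 87662722 to 87735539, plus strand) had 16.00, 14.8 and 13.5 TPM, from 1131, 1325 and 1367 counts, with a mean of 14.8 ± 1.24 TPM. Its relative Znrf3 had 7.64 ± 0.173 TPM and was below Rnf43 in 3 of 3 libraries, with a log2 ratio of -0.86 ± 0.13 (two-sided exact sign-flip permutation p = 0.25, adjusted 0.375). The genes nearest in level were Tnks2, at 0.23, and Csnk1e, at 0.45, for Axin2, and Ep300, at 0.09, and Lrp4, at 0.37, for Rnf43.

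In the order of mean TPM, neighbours were taken to differ when all 3 libraries had the same sign and the mean log2 difference exceeded its SD. By this rule Ctnnb1 lay above Lgr6, by 1.48 ± 0.13 on the log2(TPM + 1) scale. Lgr6 did not differ from Lgr4 beyond the spread (0.35 ± 0.35), nor Lgr4 from Lgr5. Lgr5 lay above Tcf7l1 by 1.56 ± 0.39. Tcf7l1, Tcf7 and Axin2 followed one another without differing beyond the spread, the last step being 0.05 ± 0.42. Axin2 lay above Rnf43 by 0.71 ± 0.20, Rnf43 above Tcf7l2 by 0.14 ± 0.11 and Tcf7l2 above Lef1 by 2.45 ± 0.17. The smallest of these steps, from Rnf43 to Tcf7l2, rests on gene length (6558 against 8739 bases), since in counts Rnf43 was below Tcf7l2 in 3 of 3 libraries. In counts Axin2 also lay above Tcf7 in 3 of 3 libraries. For Tcf7, the nearest Wnt genes in level were Dvl2 at 0.53 and Tnks2 at 0.59, for Tcf7l1 Vcl at 0.28 and Lrp6 at 0.57, for Tcf7l2 Nkd1 at 0.19 and Btrc at 0.35, and for Lef1 Nkd2 at 0.50 and Notum at 0.70.

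The authors' deposited table also set these cells against the Bulge libraries. Its sign was checked on 2555 genes that had 0 counts throughout the alpha6+/Sca1- libraries. All 2555 carried a negative log2 fold change in the authors' deposited table, and positive values were read as higher in the alpha6+/Sca1- libraries. At a deposited adjusted p-value under 0.05, 1 of the 10 genes was higher in the authors' deposited table, where 23.6% of 20274 genes with an adjusted p-value were, and 3 of 10 were lower, where 32.0% were. Among the 13506 of these with a mean of at least 1 TPM the shares were 35.1% higher and 25.6% lower. At a limit of 0.01 the same 1 and 3 genes were called, where 19.9% and 26.3% of all genes with an adjusted p-value were, and 29.8% and 21.7% of those with a mean of at least 1 TPM. With an absolute log2 fold change of at least 1 as well as the limit of 0.05, the same genes were called, where 19.0% and 27.3% of all were, and 28.3% and 18.7% of those with a mean of at least 1 TPM. Neither count of the 10 genes is therefore far from the background, and the deposited values are read gene by gene. All 10 genes had an adjusted p-value.

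Ctnnb1 was the gene higher in the authors' deposited table, with a log2 fold change of 1.50, a 2.83-fold difference (adjusted p = 2.26e-09 in that table). The other effectors split. Tcf7l2 was lower, with a log2 fold change of -2.82 in the authors' deposited table, a 7.05-fold difference (adjusted p = 4.64e-50), and 14.6% of all deposited fold changes were below its own. Tcf7l1 had a log2 fold change of 0.25 (adjusted p = 0.539), Tcf7 of 0.14 (adjusted p = 0.725) and Lef1 of -0.77 (adjusted p = 0.0556) in the authors' deposited table. Standard errors of that comparison were not used here, so no interval is given for those that did not pass. Tcf7l2 was thus the single Tcf/Lef gene called in that comparison, and a difference between its fold change and those of its relatives was not tested.

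Of the receptors, Lgr5 and Lgr4 were lower in the authors' deposited table, Lgr5 with a log2 fold change of -1.47 (adjusted p = 5.64e-12) and Lgr4 with -1.02 (adjusted p = 1.14e-05). In linear terms these are 2.76-fold and 2.03-fold differences in the authors' deposited table. Lgr6 had -0.04 (adjusted p = 0.853) there. The feedback genes did not pass in the authors' deposited table, Axin2 with 0.45 (adjusted p = 0.0553) and Rnf43 with -0.41 (adjusted p = 0.0931). Axin2 and Lef1 both missed the limit narrowly and in opposite directions. Markers of the sorted cells, of other cells and of handling moved in the same comparison. In the authors' deposited table all 7 suprabasal markers were higher, with a median log2 fold change of 3.17. All 7 isthmus and upper follicle markers were higher too, with a median of 2.12, and 8 of 11 dissociation response genes, with a median of 1.78. Of 10 hair follicle stem cell markers, 5 were higher and 2 lower, with a median of 0.60. Among all genes with an adjusted p-value 23.6% were higher and 32.0% lower. Among those with a mean of at least 1 TPM the shares were 35.1% and 25.6%. The part of the markers in the fold changes of the 10 genes was not tested.

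Gene length moved with the deposited fold change. Across the 13506 genes with an adjusted p-value and a mean of at least 1 TPM, Spearman's rho of length and log2 fold change was -0.385, given as a description across genes, which share the same libraries. In 5 equal groups from short to long, the median log2 fold change in the authors' deposited table was 1.09, 0.92, 0.50, 0.00 and -0.85. Of the longest group, from 6572 bases, 58.8% of genes were lower and 11.1% higher in the authors' deposited table. Lgr5 with 10264 bases, Lef1 with 8788, Tcf7l2 with 8739 and Lgr6 with 6851 fall in it. The part of length in the deposited fold changes was not tested.

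Set against the median of the 1000 genes nearest in length, a comparison chosen after seeing the data, the 4 called genes kept their direction. Ctnnb1 lay at 1.42, Tcf7l2 at -2.06, Lgr4 at -0.86 and Lgr5 at -0.55 on the log2 scale, from the authors' deposited table. For Lgr5 the genes of like length had a median of -0.92. Lef1 came to -0.02, so it did not stand out from genes of its length, and Axin2 to 0.49. Tcf7 came to -0.76, Tcf7l1 to -0.13 and Lgr6 to 0.33, each with the sign opposite to its deposited value.

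**Figure D3:**
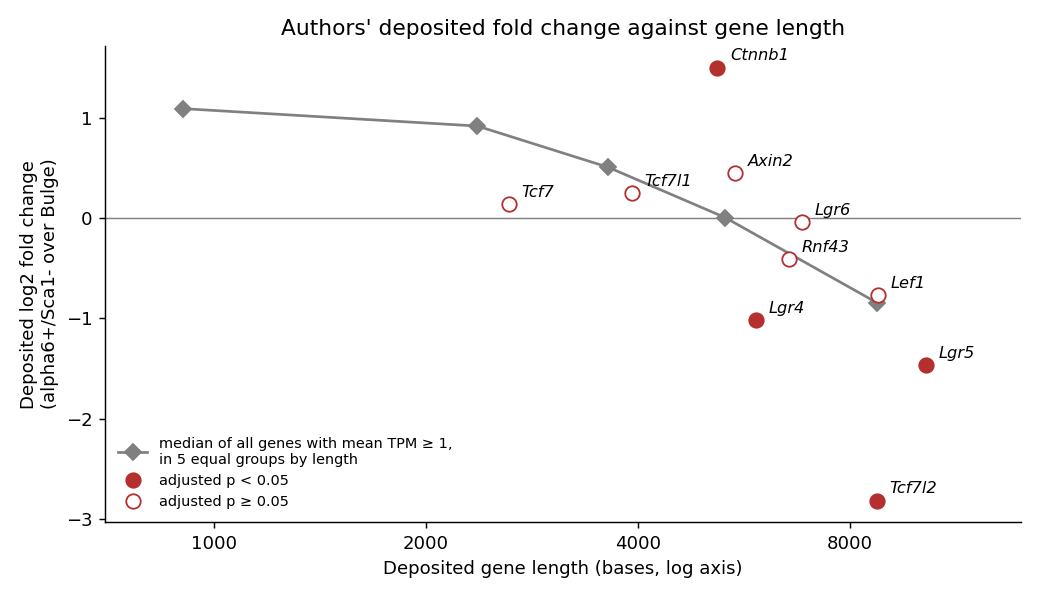
Deposited log2 fold change (alpha6+/Sca1- over Bulge, as read from the column names) against deposited gene length in bases on a log axis, with filled circles for an adjusted p-value under 0.05 and open circles for the rest. Grey diamonds are medians of all genes with a mean of at least 1 TPM in 5 equal groups by length, falling from 1.09 to -0.85, and Ctnnb1 at 1.50 and Tcf7l2 at -2.82 lie farthest from them.

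The table also gave each gene a whole number headed H3K27me3, after the histone mark laid down by Polycomb at silenced genes, with its unit and source cells not given in the sources used here. Of the 10 genes 1 had a value above 0, where 8.06% of all 44625 entries did, and 3.29% of the genes with a mean of at least 1 TPM. That gene was Lef1, with 13866 in the authors' deposited table, above 70.4% of the 3597 genes with a value. The same value stood at 1 further entry, an antisense gene on chromosome 3 from 131109026 to 131112090, which overlaps the start of Lef1 and had 0, 0 and 1 counts. Lef1 was nonetheless at the percentile of 90.3 by mean TPM among the genes with a value, of which 12.5% reached a mean of 1 TPM. In the authors' deposited table the score is a product of the H3K27me3 value plus 1, the -log10 adjusted p-value and the log2 fold change. It was -13393 for Lef1, whose fold change did not pass (adjusted p = 0.0556 in that table), and between -139 and 13.0 for the other 9 genes.

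The other genes of the pathway were read from 6 lists with 79 genes in the table, of which 64 had a mean of at least 1 TPM. In the authors' deposited table, 20 of the 70 with an adjusted p-value were higher (28.6%) and 21 lower (30%). Over all 20274 genes with an adjusted p-value the shares were 23.6% and 32.0%. Over the 13506 of these with a mean of at least 1 TPM they were 35.1% and 25.6%. The median log2 fold change of the 70 was 0.02, against -0.36 over all 20274 genes and 0.25 over those 13506. The direction of each difference thus depends on the background.

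In the destruction complex list, which marks beta-catenin for degradation, 3 of 15 genes were higher and 6 lower in the authors' deposited table, with a median of -0.20. Among all genes with an adjusted p-value 23.6% were higher and 32.0% lower, and 35.1% and 25.6% of those with a mean of at least 1 TPM. The 6 lower genes each had 8496 bases or more, in the longest of the 5 groups by length, where 58.8% of genes were lower. The part of length in these calls was not tested. Axin1, the constitutive scaffold, had a log2 fold change of 1.18 in that table at a level of 43.2 ± 3.99 TPM (SD, n = 3), and Csnk1e and Csnk1d had 1.04 and 0.49. The kinase gene Gsk3b had -2.46 in the authors' deposited table at 18.2 ± 1.03 TPM, the scaffold gene Apc -2.20 at 12.4 ± 4.51 TPM, and Tnks, whose product marks axin for degradation, -1.47. Csnk1a1 was the highest of the list with 92.0 ± 6.98 TPM, and Apc2 and Amer2 were the lowest with 1.86 ± 0.575 and 0.226 ± 0.200 TPM.

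Of 13 nuclear coactivators, 2 were higher and 8 lower in the authors' deposited table, with a median log2 fold change of -1.15, against 23.6% higher and 32.0% lower over all genes. Their median length was 7704 bases. The 8 lower genes each had 7052 bases or more, in the longest of the 5 groups by length, where 58.8% of genes were lower. The other coactivators each had 6475 bases or fewer, and none of them was lower. The part of length in these calls was not tested. Pygo2, which docks on beta-catenin through Bcl9 proteins, had 2.77 in the authors' deposited table at 63.4 ± 4.48 TPM (SD, n = 3), and Ruvbl1 had 0.95. The histone acetyltransferase genes Crebbp and Ep300 had -2.89 and -2.28 there, and Tbl1xr1 had -2.21. Relative to genes of like length the median of the list was -0.45. Bcl9l had the highest level with 72.2 ± 12.1 TPM, and Pygo1 and Cdc73 the lowest with 7.44 ± 1.41 and 6.05 ± 1.21 TPM.

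Of 14 corepressors and inhibitors with an adjusted p-value, 5 were higher and 3 lower in the authors' deposited table, with a median of 0.36. There, 23.6% of all genes with an adjusted p-value were higher and 32.0% lower, and 35.1% and 25.6% of those with a mean of at least 1 TPM. Aes, a short Tle relative that lacks the repeats of the others, was highest with 398 ± 64.5 TPM (SD, n = 3) and had a log2 fold change of 3.51 there over a length of 1411 bases. Ctbp1 with 98.0 ± 1.77 TPM had 2.50 in the authors' deposited table, and Cby1, which binds beta-catenin and competes with Tcf/Lef, had 2.03. Chd8 had -1.26 there and Tle4, a corepressor bound by Tcf7l1, had -1.15. Sox17 had no count in any library, a limit of 0.0583 TPM, and Hic1 had 0.375 ± 0.143 TPM.

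Around the Lgr receptors, the ligand genes were low while the receptor partners were present. Rspo1 had 67, 55 and 68 counts and up to 3.21 TPM, Rspo3 had 10, 12 and 0 counts, Rspo2 had 0, 0 and 13, and Rspo4 had none in any library, a limit of 0.117 TPM. All 4 R-spondin genes had an H3K27me3 value above 0 in the authors' deposited table, from 2345 for Rspo4 to 9421 for Rspo1. Dvl1, which carries the signal from Frizzled, had 55.1 ± 28.9 TPM (SD, n = 3), with 88.4 TPM in replicate 1 against 40.4 and 36.6 TPM in the others. Lrp5 had 29.05, 48.6 and 56.6 TPM and Lrp6 had 33.6 ± 2.24 TPM. Dvl1 and Dvl2 were higher in the authors' deposited table, with 2.41 and 1.57, and Znrf3 and Lrp6 were lower, with -2.47 and -1.24. Znrf3 and its relative Rnf43 thus had the same sign there, and Rnf43 did not pass.

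Of 13 Wnt target genes with an adjusted p-value, 6 were higher and 2 lower in the authors' deposited table, with a median log2 fold change of 0.83. Relative to genes of like length the median of 11 was 0.62. Among all genes with an adjusted p-value 23.6% were higher and 32.0% lower, with a median of -0.36. Among those with a mean of at least 1 TPM the shares were 35.1% and 25.6%, with a median of 0.25. Of the higher targets, Notum, whose product removes the lipid from Wnts, had 4.02 at a level of 2.08 ± 0.194 TPM (SD, n = 3). Apcdd1, which binds Wnts at the membrane, had 3.01 at 31.7 ± 6.52 TPM, and Wif1, a secreted Wnt-binding protein, had 1.98 at 110 ± 12.3 TPM. Bmp4 and Cd44 were lower in the authors' deposited table, with -2.36 and -0.96. Myc was the highest of the list with 135 ± 26.4 TPM and had -0.35 there (adjusted p = 0.205). Dkk1, Sp8 and Mmp7 had no count in any library, with limits of 0.115, 0.0621 and 0.261 TPM. Of the 18 target genes 10 had an H3K27me3 value above 0 in the authors' deposited table, where 8.06% of all entries did. They were 5 of the 7 targets with a mean under 1 TPM and 5 of the 11 others, where 3.29% of all genes with a mean of at least 1 TPM had a value.

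Among 6 partners of beta-catenin at junctions with an adjusted p-value, 2 were higher and 0 lower in the authors' deposited table. There, 23.6% of all genes with an adjusted p-value were higher and 32.0% lower, and 35.1% and 25.6% of those with a mean of at least 1 TPM. Jup, which encodes plakoglobin, a close relative of beta-catenin, had 433 ± 136 TPM (SD, n = 3) and a log2 fold change of 0.92 there, with 277, 527 and 495 TPM in replicates 1 to 3. Ctnna1 had 394 ± 7.96 TPM and 0.51 in the authors' deposited table. Cdh1 had 270, 429 and 365 TPM and Cdh3, the P-cadherin gene, had 92.0, 137 and 119 TPM. Of the 6 genes of this list with a mean of at least 1 TPM, 0 were highest in replicate 1, and Ctnnb1 was lowest there. Cdh2 had 5, 0 and 1 counts and Ctnnd1 18.5 ± 3.07 TPM.

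**Figure D4:**
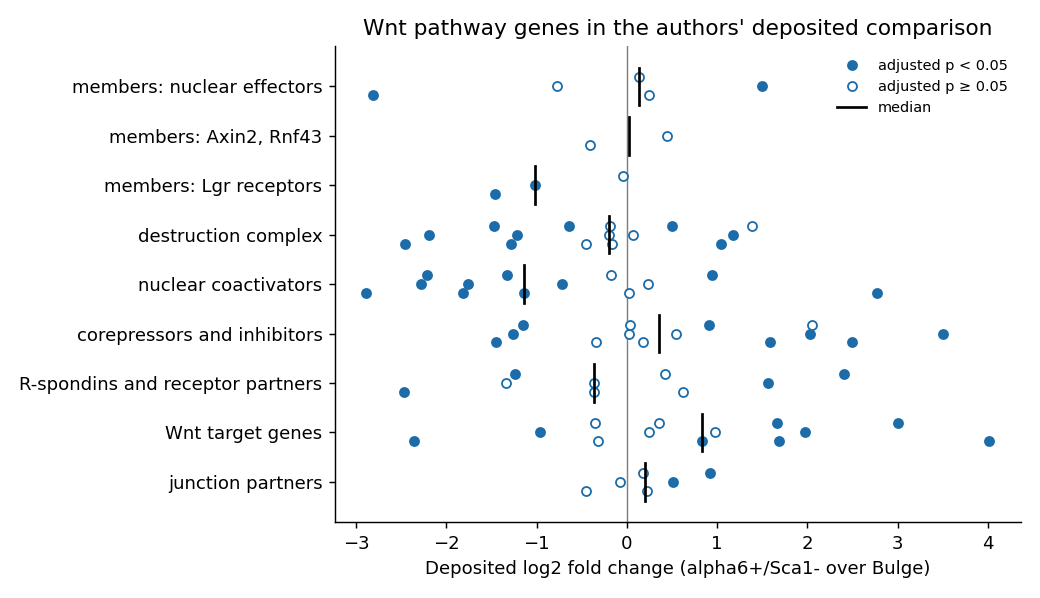
Deposited log2 fold change (alpha6+/Sca1- over Bulge) of the 10 genes and of 6 lists of Wnt pathway genes, 1 point per gene with an adjusted p-value, filled where that value is under 0.05, with a bar for the median of each list. The coactivators lie mostly below 0, with a median of -1.15, and the Wnt target genes mostly above it, with a median of 0.83.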

How the data were processed

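Whole-number read counts per gene and TPM values for 3 alpha6+/Sca1- libraries were deposited by the authors in 1 table, per the file headers. The submitters' processing notes list FastQC, SAMtools, TopHat2, DESeq and DESeq2 and the builds mm10 and GRCm38, with no role given. The counting tool, strand setting and annotation release are not given in the sources used here. A recomputation of TPM with the deposited length differed by at most 4.72e-06, and that length equalled the merged exon length of GENCODE M21 in 9 of the 10 genes (Tcf7l2 8739 against 8775 bases). The deposited log2 fold change and its adjusted p-value are the authors' own, with the test not stated. The deposited score equalled its product formula within 0.1% in all 20274 cases. Another 6 columns of per-sample values match no sample and were not used.

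Ratios were taken on the log2(TPM + 1) scale within libraries and tested by exact sign-flip permutation (two-sided), Benjamini-Hochberg adjusted over 6 ratios. TMM factors came from edgeR 4.0.16 and size factors from DESeq2 1.42.0, both as alternatives. Calculations used Python 3.11.15 with scipy 1.17.1 and were tested on simulated data. Poisson intervals are exact (95%), and 0 counts allow up to 3 counts. Intervals cover counting error only. Coordinates are those of GENCODE M21 (GRCm38), by identifier. Of 188 list entries 2 were not found by symbol. From each pathway list the text names the 2 highest and 2 lowest genes by mean TPM and up to 3 called genes in each direction, and others only to complete a family or a count, chosen after their values were seen. The members and lists were chosen with earlier results of these data known.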

Additional observations from a re-analysis of the deposited data

How the results depend on the processing

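Levels per gene length decided the order of the receptors. In library-scaled counts without division by length, the log2 ratio of Lgr6 to Lgr5 was -0.14 and that of Lgr4 to Lgr5 was -0.70, both reversed. Under this setting Tcf7l1 over Tcf7l2 went from 1.11 to 0.01 ± 0.64, so that their order was lost, and Tcf7l1 over Tcf7 from 0.22 to 0.78 ± 0.40, beyond its spread. Tcf7l1 over Lef1 (2.84) and Znrf3 over Rnf43 (-0.66) kept their direction there, and all 6 ratios did under pseudocounts of 0.1 and 5. Leaving out each library in turn gave ranges of 0.88 to 1.47 for Tcf7l1 over Tcf7l2, 3.33 to 4.00 for Tcf7l1 over Lef1, 0.04 to 0.43 for Tcf7l1 over Tcf7, 0.38 to 0.54 for Lgr6 over Lgr5, 0.02 to 0.24 for Lgr4 over Lgr5 and -0.92 to -0.79 for Znrf3 over Rnf43. TMM scaling moved the median of detected genes by -0.16, 0.07 and 0.09 on the log2 scale in replicates 1 to 3. With it, replicate 1 against the others turned from positive to -0.077 for Rnf43, -0.14 for Lgr4 and -0.18 for Lgr6, and with DESeq2 size factors to -0.090, -0.15 and -0.20. These and the subtraction of the median at like length, which turned Tcf7 to -0.76, Tcf7l1 to -0.13 and Lgr6 to 0.33, were chosen after seeing the data. A limit of 5 TPM left 9 of the 10 genes, and the deposited calls were 1 higher and 3 lower under each limit tried. No paired analysis was possible because the samples form 1 group. With 3 libraries no sign-flip p can fall under 0.25.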
